A study of Danio rerio with 4 samples.

Results

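The Fox and Sox transcription factors on a zebrafish (Danio rerio) expression array were followed in cells sorted from the kidney region of embryos injected with a morpholino, an antisense oligomer, directed at the microRNA miR-34b or with a control morpholino. The group holds every probe set whose 1 annotated gene name is a Fox name with a letter and a number, or a Sox name with a number, with foxn4 left out. It came to 60 probe sets for 41 genes, out of 15617 probe sets on the array: 27 probe sets for 23 Fox genes and 33 for 18 Sox genes. The RefSeq gene table for assembly GRCz12tu lists 87 such genes, and the annotation used here names no probe set for the other 46, among them foxj1a, foxj1b, foxi3a, foxi3b, sox6, sox7 and sox18.

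Fox proteins bind DNA through a forkhead domain and Sox proteins through a high mobility group box, and both families are divided by sequence into lettered subfamilies. Many members fix or keep a cell's identity: FoxA factors act in endoderm, FoxD3 and the SoxE factors in neural crest, SoxB1 factors in neural progenitors, SoxC factors in neurons that are differentiating, SoxD and SoxE factors in cartilage, and SoxF factors in vessels and endoderm. In ciliated epithelia FoxJ1 switches on the genes of motile cilia, and FoxI factors set up ionocytes, the ion-transporting cells of fish skin and of the kidney tubule. FoxO, FoxK, FoxM and FoxP factors are used more widely, in growth, metabolism and the cell cycle.

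All 4 arrays came from embryos of the AB background that carry the transgene Tg(cmyb:EGFP), in which the promoter of cmyb drives green fluorescent protein, taken 3 days after fertilization. Each of the 2 control arrays and 2 miR-34b arrays (called morphants here) used RNA from fluorescent cells sorted out of a dissected tissue block, amplified before labelling, and the replicates are described as independent sets. The labels call the cells kidney multiciliated cells, which carry many motile cilia. That reporter promoter is not particular to them, since myb is also used in blood-forming cells. In sorted bulk samples, fewer cells of a type and less RNA per cell cannot be told apart.

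The deposited values are log2 signals, scaled by the authors to a common level per array, with medians between 7.18 and 7.29. The 20 control probe sets for sequences absent from the sample set the background: the brightest of them read 4.93 and 3.71 on control replicates 1 and 2 and 4.43 and 4.11 on morphant replicates 1 and 2. A value above that limit is called above background here. The motile cilium genes used as a check were above background on all 4 arrays for 20 of 21 genes, myeloid markers for 11 of 12 and skeletal muscle markers for 15 of 15. The array's probe set for EGFP was within background on every array, at 3.74, 1.61, 1.71 and 2.72. Poly-A spike-in controls averaged 9.95 and 9.96 in controls against 9.54 and 8.73 in morphants. The 3′ minus 5′ signal of the acta1 controls, a sign of RNA quality, was 2.54 and 2.47 in controls against 2.38 and 3.39 in morphants, so that morphant replicate 2 stood apart. Probe sets of foxd3 (4.66), sox2 (5.32) and foxo3b (5.87) had their lowest signal on that array, and others did not. The brighter foxo3b probe set (7.83) and a dimmer sox2 probe set (5.22) were lowest on control replicate 1, and foxm1 (6.41) on morphant replicate 1. The part of these array differences in the results was not tested.

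Fox and Sox probe sets were often dim. Of the 60, 33 (55.0%) were above background on all 4 arrays, against 75.5% of the 15502 probe sets that are not array controls, and 13 were within background on every array. The fit left out the lowest 25% of probe sets by mean signal, which kept 32 Fox and Sox probe sets for 26 genes. No FoxG, FoxH, FoxI, SoxB2 or SoxF probe set was among them. For 2 of the 32, foxl1 and 1 of the sox3 probe sets, only the group with the higher signal lay above that limit.

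**Figure D1:**
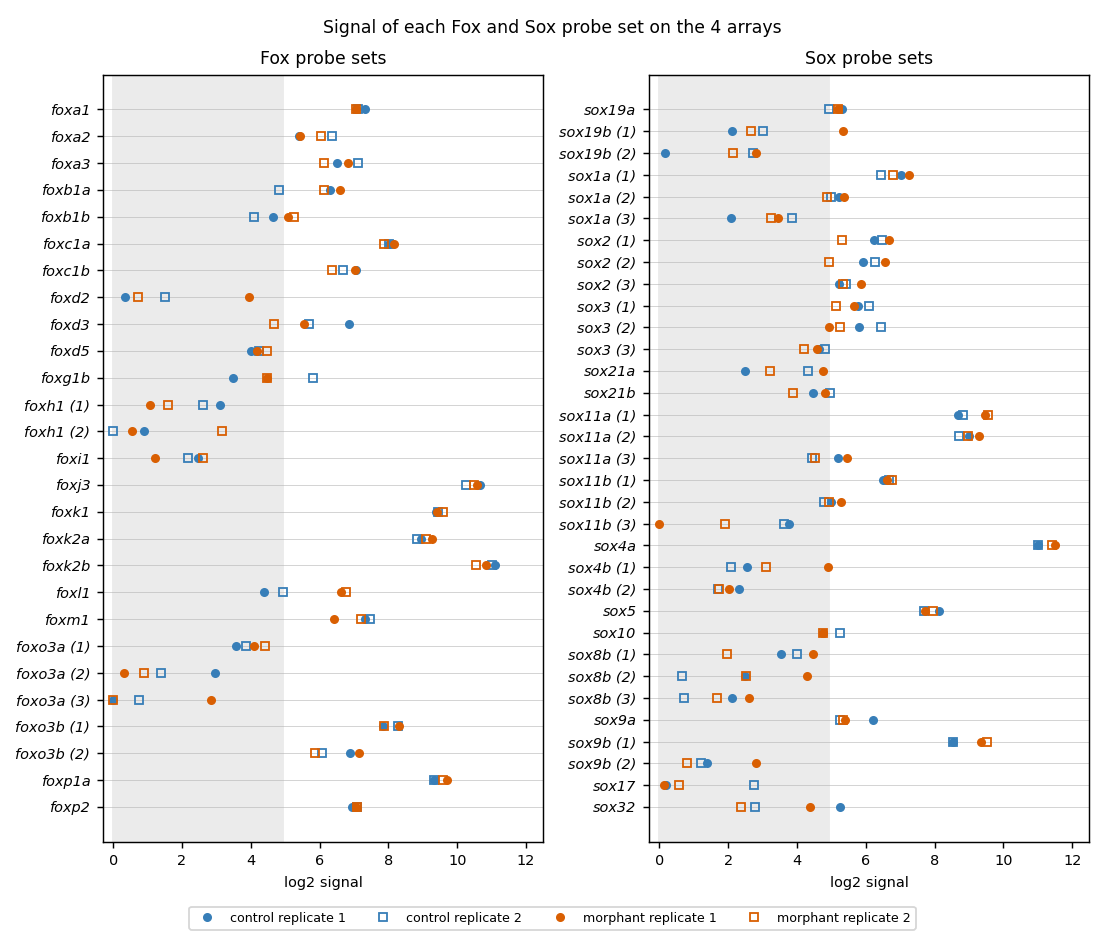
Log2 signal (x axis) of each of the 60 Fox (left) and Sox (right) probe sets on the 4 arrays; circles are replicate 1 and squares replicate 2, blue control and orange morphant. The grey band reaches up to 4.93, the brightest absent-sequence control on any array; 13 probe sets lie within each array's own background on all 4 arrays. Numbers in brackets tell apart probe sets of 1 gene.

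One member passed limma's test over all probe sets (Benjamini-Hochberg adjusted p under 0.05), and it was foxl1, which was higher in the morphants. In all, 1 of the 32 was called higher and 0 were called lower, where 2.49% of the 11626 probe sets tested were called higher and 0.12% lower. At an unadjusted p under 0.05, 4 members were higher and 1 lower, against 11.6% and 6.1% of all probe sets tested. The groups did not overlap in 6 members that were higher and 6 that were lower, where the shares over all probe sets tested were 25.1% and 24.7%. The median log2 difference of the 32 was 0.035, against −0.017 over all probe sets tested, and the median size of the difference was 0.302 against 0.235. These members came through a filter on signal, so their counts describe the 32 and not all 60. foxl1 and the sox3 probe set that was lower at the unadjusted level passed that filter only through their higher group. Their place in these counts is therefore no independent support.

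**Figure D2:**
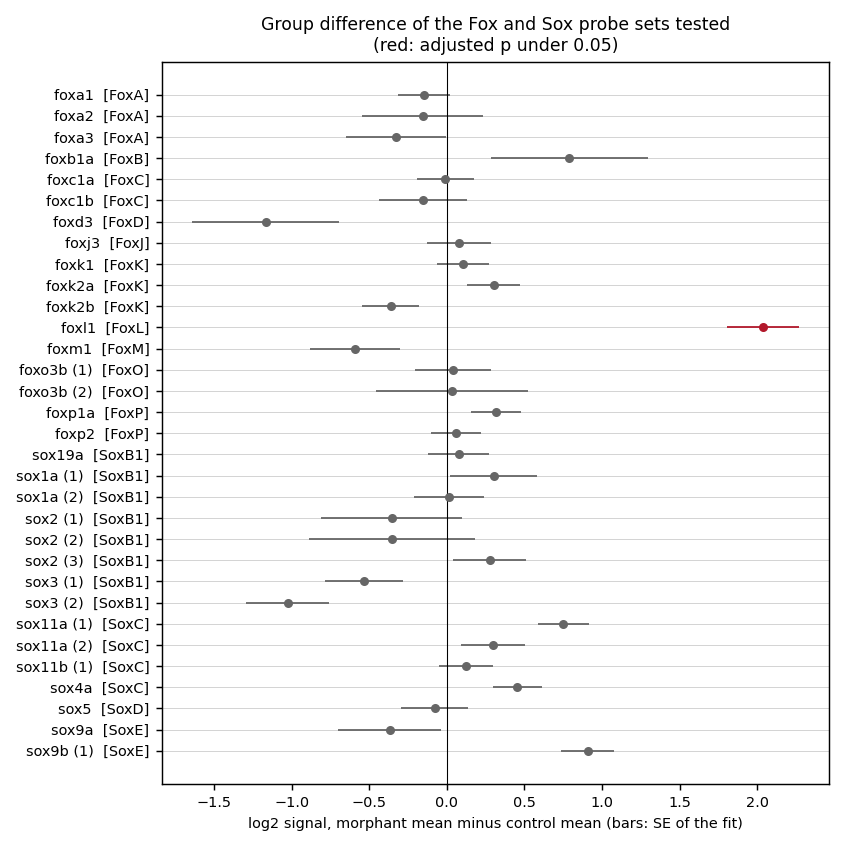
Morphant mean minus control mean in log2 signal (x axis) for the 32 Fox and Sox probe sets tested, with bars for the standard error of limma's fit and the subfamily in square brackets. foxl1 at 2.04 is the 1 probe set past the threshold (red), and 29 of the 32 lie within 1 of zero. foxl1 passed the signal filter only through its morphant values.

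The forkhead gene foxl1 is known in the mouse from the mesenchyme beneath the gut epithelium. On the log2 scale it read 4.38 and 4.92 in controls against 6.62 and 6.76 in morphants. Both morphant values lay above both control values and above background, while the value of control replicate 1 lay within background. The difference was 2.04 ± 0.23 (SE, 2 arrays a group), or 4.1-fold as measured (limma, adjusted p = 0.0233). With 1 of the 2 control arrays within background, the size of that fold is uncertain. The call was lost when control replicate 1 (difference 1.77), morphant replicate 1 (2.11) or morphant replicate 2 (1.96) was left out. Such fits leave 1 array in a group. Without control replicate 2 the difference was 2.31. The call was also lost when dim probe sets were kept in (limma adjusted p = 0.137). In that setting, without the filter, 0 probe sets over the whole array were called higher and 0 lower, so that loss was not particular to foxl1. Passing that filter took the morphant values: the control mean of 4.65 lay under its limit of 5.10. The forkhead gene foxn4, which the rule leaves out, read 7.04 and 7.44 in control cells against 10.56 and 10.36 in morphant cells in its brightest probe set (3.22 ± 0.21, SE; limma adjusted p = 0.0153). Its dimmer probe sets differed by 2.71 ± 0.35 (limma adjusted p = 0.0286) and by 1.85 ± 0.38, which did not pass (adjusted p = 0.083).

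SoxC genes act in neurons as they differentiate and in many progenitor cells. Their 4 tested probe sets, for 3 genes, all lay above 0 and none passed the threshold. Over all probe sets tested, 5579 lay above 0 and 6047 below, a split that also stands behind the sign counts of the lists below. The brightest SoxC probe set was that of sox4a, with 11.01 and 11.01 without and 11.50 and 11.42 with the miR-34b morpholino. The groups did not overlap, and the difference was 0.45 ± 0.16 (SE; limma adjusted p = 0.235). The probe set of sox11a with the strongest statistic read 8.68 and 8.82 in controls and 9.46 and 9.54 in morphants (0.75 ± 0.17, SE; limma adjusted p = 0.0995). The cluster of the array design that holds the sox11a probe sets also holds 1 named dynll1, a dynein light chain, at 10.84 and 10.83 against 11.58 and 11.23. The sox11a difference of 1.68-fold was not matched by the other sox11a probe sets. The second read 8.99 and 8.70 in control cells against 9.30 and 8.97 in morphant cells, so that its groups overlapped (0.30 ± 0.21, SE). The last, too dim for the fit, read 5.20 and 4.43 against 5.46 and 4.52.

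The paralog sox11b had 1 tested probe set, at 6.49 and 6.66 in controls and 6.61 and 6.77 in morphants (0.12 ± 0.17, SE). Its second probe set read 4.99 and 4.78 in controls and 5.29 and 4.92 in morphants, again with groups that overlapped. The last had the largest group difference in size of the 60 probe sets, with 3.76 and 3.62 against 0.00 and 1.91, but with every value within background, so no fold is given. The probe sets of sox4b were dim as well. One read 2.55 and 2.08 in control cells against 4.89 and 3.1 in morphant cells, where only morphant replicate 1 was above background, and the other lay between 1.71 and 2.31 on all arrays. The strand that each probe set reads was not given, and probe sets of 1 gene whose names differ in the letters S and A may differ in it.

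Genes of neurons were described beside them, from a list of genes tied to SoxC factors. Of 19 tested, 0 passed in either direction, 17 lay above 0 and 2 below, and the median was 0.66; at an unadjusted limma p under 0.05, 9 were higher and 0 lower, where the shares over all probe sets tested were 11.6% and 6.1%. The smallest p-values were those of stmn2a, a tubulin-binding protein of growing axons (1.15 ± 0.22, SE; limma adjusted p = 0.0726), and snap25a, a synaptic fusion protein (0.71 ± 0.18; adjusted p = 0.131). Over its 28 genes with a probe set, the mean of this list on the morphant arrays was 0.37 and 0.35 above its control mean, from which the control arrays differed by 0.13 and −0.13.

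SoxE genes include sox9a and sox9b, which zebrafish use in cartilage and elsewhere, sox10 of neural crest, pigment cells and glia, and sox8b. The 2 probe sets tested were those of the sox9 paralogs, and they pointed in opposite directions. sox9b read 8.52 and 8.53 without and 9.34 and 9.52 with the miR-34b morpholino. The groups were separate, the difference was 0.91 ± 0.17 (SE), or 1.87-fold, and it did not pass (limma adjusted p = 0.0680). A second sox9b probe set was within background on all arrays, between 0.81 and 2.81. sox9a read 6.20 and 5.24 in controls and 5.38 and 5.33 in morphants (−0.37 ± 0.33, SE; limma adjusted p = 0.630), with groups that overlapped. Without control replicate 1 its difference was 0.11. The probe set of sox10 was left out as dim, at 4.75 and 5.26 in controls and 4.76 and 4.76 in morphants. The 3 probe sets of sox8b lay between 0.65 and 4.45, and 1 of them was above background on any array: it read 3.52 and 4.01 without and 4.45 and 1.96 with the miR-34b morpholino. Another sox8b probe set had separate groups within background, with 2.50 and 0.65 in controls and 4.28 and 2.52 in morphants.

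The single SoxD probe set tested was that of sox5, a partner of Sox9 in cartilage, at 8.13 and 7.70 in control cells against 7.73 and 7.95 in morphant cells (−0.08 ± 0.22, SE). Genes of cartilage and notochord tied to SoxD and SoxE factors had 0 of 14 past the threshold, 3 above 0 and 11 below, and a median of −0.72. At an unadjusted limma p under 0.05, 0 were higher and 7 lower, against 11.6% and 6.1% of all probe sets tested. The smallest p-values were those of col11a2, a cartilage collagen (−1.43 ± 0.30, SE; limma adjusted p = 0.0924), and matn4, a matrilin of the matrix (−1.20 ± 0.26; adjusted p = 0.0954). Averaged over its 22 genes with a probe set, this list stood at −0.02 and 0.02 without and −0.40 and −0.35 with the miR-34b morpholino, relative to the control mean. Skeletal muscle markers, from the same tissue block, had 0 of 15 past the threshold and 15 of 15 below 0, with array means 0.23 and −0.23 from the control mean in controls and −0.57 and −0.85 from it in morphants. At that unadjusted level, with the same shares over all probe sets, 0 of these markers were higher and 7 lower. The muscle and cartilage lists were chosen with earlier results of these data known, so their counts are no independent support. The part of muscle in the cartilage values was not tested. Genes of neural crest and pigment cells had 0 of 9 past the threshold and a median of −0.30, with crestin, a neural crest transcript, at 0.93 ± 0.20 (SE; limma adjusted p = 0.0924) and msx1b at −0.66 ± 0.19 (adjusted p = 0.163). Over the 21 genes of that list with a probe set, the array means were 0.09 and −0.09 from the control mean in controls. In morphants they were 0.31 and −0.34 from it, on either side.

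FoxD3 keeps neural crest progenitors, and its probe set gave the lowest difference among the Fox members tested. It read 6.85 and 5.69 in controls and 5.54 and 4.66 in morphants, so that the groups were separate while the control arrays differed by more than 1. The difference was −1.17 ± 0.47 (SE) and did not pass (limma adjusted p = 0.293). The other FoxD members, foxd2 and foxd5, were too dim for the fit. foxd2 was within background on all arrays, and foxd5 read 4.01 and 4.24 in control cells against 4.18 and 4.47 in morphant cells.

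SoxB1 genes, which keep neural progenitors undifferentiated, had 8 tested probe sets, 4 above 0 and 4 below, and a median of −0.17. The brightest was that of sox1a, at 7.02 and 6.43 without and 7.25 and 6.80 with the miR-34b morpholino (0.30 ± 0.28, SE). A second sox1a probe set was at 0.01 ± 0.23, turning negative under quantile and median scaling. sox2, a factor of pluripotent and neural stem cells, had 3 tested probe sets. The brightest read 6.24 and 6.47 in controls and 6.68 and 5.32 in morphants, so that the morphant arrays lay on either side of the controls (−0.36 ± 0.45, SE). Without morphant replicate 2, the lower of them, the difference was 0.32. The other sox2 probe sets gave −0.35 ± 0.53 and 0.28 ± 0.23. sox19a was at 0.08 ± 0.20, and both probe sets of sox19b were left out as dim.

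The 3 probe sets annotated as sox3, a factor of neural progenitors, each had separate groups with the morphants lower, and neither of the 2 tested passed. Over all probe sets that are not array controls, 22.2% were separate and lower. The nearest arrays of the groups were 0.56, 0.10 and 0.06 log2 units apart, in the order given below. The one with the strongest statistic read 5.81 and 6.43 in control cells against 4.93 and 5.25 in morphant cells (−1.03 ± 0.27, SE; limma adjusted p = 0.142). Its morphant mean of 5.09 lay under the filter's limit of 5.10, so passing the filter took its control values. The second read 5.77 and 6.09 in controls and 5.67 and 5.12 in morphants (−0.53 ± 0.25, SE; limma adjusted p = 0.359). The last, too dim for the fit, read 4.64 and 4.80 against 4.58 and 4.19. Their gene name is uncertain: the 3 belong to different clusters of the array design, and the clusters also hold 17, 2 and 7 probe sets named for other genes. In the first cluster a probe set named hapln1a, a link protein of cartilage matrix, read 5.82 and 5.77 in controls and 4.92 and 5.20 in morphants. Another hapln1a probe set there overlapped, at 5.77 and 4.77 against 4.81 and 4.80. The last hapln1a probe set there, a dim one, was separate and lower, at 4.32 and 4.53 against 3.41 and 4.16. The differences in that cluster went both ways, from −0.85 for atp2a1 to 1.13 for a dim lrrn1 probe set. Which gene the sox3 probe set reads was not tested. In the second cluster stands foxp1a.

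Of the neural progenitor genes listed with SoxB factors, 17 were tested, 1 rose and 0 fell past the threshold, and the median was 0.08. Over all probe sets tested, 2.49% were called higher and 0.12% lower. At an unadjusted limma p under 0.05, 4 of the 17 were higher and 0 lower, against 11.6% and 6.1% of all probe sets tested. The gene that rose was emx1, a homeobox gene of forebrain and urogenital tissue, at 7.45 and 7.17 in control cells against 9.67 and 8.85 in morphant cells (1.95 ± 0.31, SE; limma adjusted p = 0.0475). The SoxB2 genes sox21a and sox21b, repressors in the nervous system, were too dim for the fit. sox21b read 4.46 and 4.96 without and 4.80 and 3.88 with the miR-34b morpholino, and sox21a 2.49 and 4.32 against 4.75 and 3.22.

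The FoxK genes, factors of metabolism and autophagy that many cells express, were above background on all arrays, and their differences were small. foxk2b read 11.11 and 11.01 in controls and 10.84 and 10.55 in morphants (−0.36 ± 0.18, SE; limma adjusted p = 0.390). Its paralog foxk2a read 8.94 and 8.84 in controls and 9.28 and 9.10 in morphants (0.30 ± 0.17, SE; limma adjusted p = 0.437). Both had separate groups, in opposite directions. foxk1 differed by 0.10 ± 0.17.

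Among the duplicated genes of the zebrafish genome, 9 pairs had a probe set for both copies and 4 had both copies tested, in their brightest probe sets. Taken within each array, the log2 ratio of foxk2a over foxk2b, relative to its control mean, was 0.01 and −0.01 without and 0.61 and 0.72 with the miR-34b morpholino. The ratio of sox11a over sox11b was 0.02 and −0.02 in controls and 0.67 and 0.59 in morphants. With the other tested sox11a probe set it was 0.23 and −0.23 against 0.42 and −0.07, and the groups overlapped. That probe set was the brighter of them in controls (mean 8.84 against 8.75), so the choice by mean over all arrays rested on the morphant values. The ratio of sox9a over sox9b was 0.48 and −0.48 in control cells against −1.16 and −1.39 in morphant cells. A single scaling factor per array cancels in these ratios, and in these 3 pairs the groups were separate in the brightest probe sets. For foxc1a over foxc1b they overlapped. Of all single probe sets tested, 25.1% were separate and higher and 24.7% separate and lower, and no such share was computed for ratios. The signals of sox11b and sox9a by themselves overlapped between the groups, so those 2 ratios largely repeat the values of sox11a and sox9b. For foxk2 both copies were already separate, in opposite directions. The separation of their ratio follows from those values and adds no support. The pairs were looked at after the values were seen, and the smallest p that an exact two-sided permutation test of 2 arrays against 2 allows is 0.333.

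**Figure D3:**
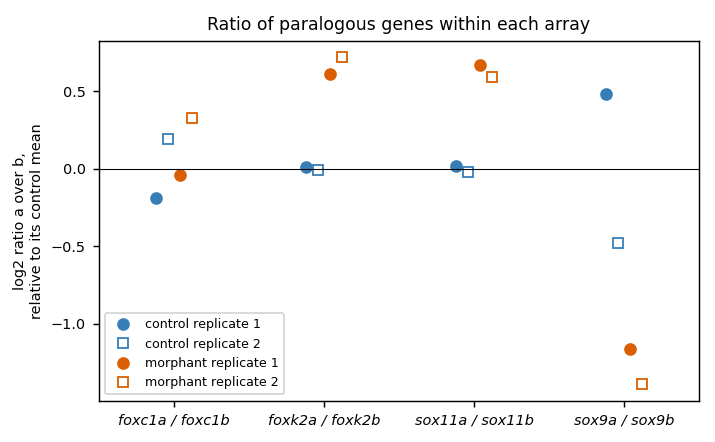
Log2 ratio of the a copy over the b copy within each array, minus the mean of that ratio on the control arrays (y axis), for the 4 paralogous pairs with both copies tested; blue control, orange morphant, circles replicate 1, squares replicate 2. The morphant arrays stand above the controls for foxk2 (change 0.66) and sox11 (0.63), below them for sox9 (−1.27), and overlap them for foxc1 (0.15).

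FoxM1 drives genes of mitosis. foxm1 read 7.32 and 7.46 without and 6.41 and 7.19 with the miR-34b morpholino, a separation that rested on 0.14 log2 units between the nearest arrays (−0.59 ± 0.29, SE; limma adjusted p = 0.371). Of 22 cell cycle genes listed as FoxM1 targets, 1 rose and 0 fell past the threshold, with a median of 0.05. Over all probe sets tested, 2.49% were called higher and 0.12% lower. At an unadjusted limma p under 0.05, 1 of the 22 was higher and 1 lower, against 11.6% and 6.1% of all probe sets tested. The gene that rose was nek2, a kinase of the centrosome that is also used at centrioles and cilia, at 6.31 and 6.44 in controls and 8.58 and 8.17 in morphants (2.0 ± 0.21, SE; limma adjusted p = 0.0183). The mitotic kinesin kif20a had −0.82 ± 0.18 and did not pass (adjusted p = 0.102).

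FoxO factors act downstream of insulin signalling. The brightest FoxO probe set, that of foxo3b, read 7.83 and 8.27 in control cells against 8.30 and 7.87 in morphant cells (0.04 ± 0.25, SE), and the second foxo3b probe set gave 0.03 ± 0.49. Both values turned negative under quantile and median scaling. The 3 probe sets of foxo3a were dim: one had separate groups within background, at 2.96 and 1.40 without and 0.31 and 0.88 with the miR-34b morpholino, and another pointed the other way, with 3.57 and 3.86 against 4.08 and 4.40. Of 28 genes of insulin signalling and FoxO targets, 0 passed, 8 lay above 0 and 20 below, and the median was −0.19. The smallest p-values were those of trim63a and trim63b, muscle ubiquitin ligases, at −1.30 ± 0.28 (SE; limma adjusted p = 0.0968) and −1.47 ± 0.42 (adjusted p = 0.172). Their array order was that of the muscle markers, highest on control replicate 1 and lowest on morphant replicate 2, and the part of muscle in them was not tested.

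FoxP genes act as repressors in blood, brain and epithelia. foxp1a read 9.32 and 9.32 in controls and 9.69 and 9.58 in morphants, with separate groups (0.32 ± 0.16, SE; limma adjusted p = 0.392). Its cluster of the array design also holds probe sets named hnrnpaba and sox3, so the name foxp1a is uncertain too. foxp2 was at 0.06 ± 0.16, and negative under quantile and median scaling. The FoxJ member named in the array annotation is foxj3, a relative of FoxJ1 known from muscle and germ cells of the mouse. It read 10.67 and 10.25 in control cells against 10.58 and 10.49 in morphant cells (0.08 ± 0.20, SE; limma adjusted p = 0.891).

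Genes of motile cilia, from a list of genes tied to FoxJ1, were described beside foxj3. The annotation used here names no probe set for foxj1a or foxj1b. Of 21 tested, 14 rose and 0 fell past the threshold, with a median of 1.49. Over all probe sets tested, 2.49% were called higher and 0.12% lower. The listed genes with the smallest p-values were cimip2b and efhc2, proteins of ciliary microtubules, tekt1, a tektin, and dynlt5, a dynein light chain. For cimip2b the signal was 6.83 and 6.57 in controls and 9.64 and 9.69 in morphants (2.97 ± 0.18, SE; limma adjusted p = 0.0153), and the other 3 differed by 2.27 ± 0.16, 2.30 ± 0.17 and 2.13 ± 0.16. At an unadjusted limma p under 0.05, 19 of the 21 were higher and 1 lower, against 11.6% and 6.1% of all probe sets tested. The 1 lower was tekt3, another tektin (−0.98 ± 0.21, SE), and dnali1 also lay below 0 (−0.36 ± 0.27). Among the called genes, ift81 had a control mean of 4.4, under the filter's limit of 5.10, and passed the filter through its morphant values. The list chosen here overlaps lists already known to be higher in these arrays, and its count is no independent support.

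**Figure D4:**
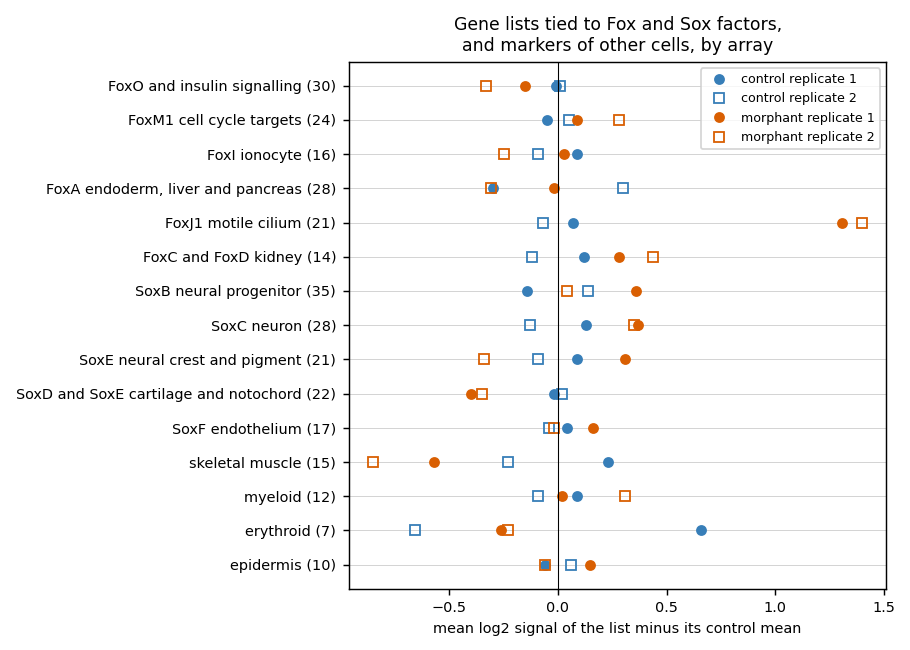
Mean log2 signal of each gene list on each array minus its mean over the control arrays (x axis), for 11 lists tied to Fox and Sox subfamilies and 4 lists of markers of other cells; the number of genes with a probe set stands in brackets. The motile cilium list stands 1.31 and 1.40 above its control mean on the morphant arrays, and the muscle list 0.57 and 0.85 below.

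FoxA factors open chromatin in endoderm, liver and pancreas, and their 3 genes gave small negative differences. foxa1 read 7.31 and 7.11 in controls and 7.06 and 7.06 in morphants (−0.15 ± 0.17, SE). foxa2 and foxa3 overlapped between the groups, at −0.16 ± 0.39 and −0.33 ± 0.32. Their sign depended on single arrays. The foxa2 difference was 0.33 without control replicate 2 and 0.15 without morphant replicate 1, and that of foxa3 was 0.01 without morphant replicate 2. Of 21 genes of endoderm, liver and pancreas, 0 passed and the median was 0.004. The smallest p-values belonged to ela2, an elastase of the exocrine pancreas (−2.78 ± 0.50, SE; limma adjusted p = 0.0647), and hnf1bb, a homeobox gene of endoderm and kidney (1.00 ± 0.21; adjusted p = 0.0924). The SoxF genes sox17 and sox32, both of endoderm, were too dim for the fit: sox32 read 5.26 and 2.79 in control cells against 4.39 and 2.38 in morphant cells, and sox17 was within background on all arrays. Genes of vessels, the other tissue of SoxF factors, had 0 of 9 past the threshold and a median of −0.01. Among them plvapb had 0.58 ± 0.22 (SE; limma adjusted p = 0.264) and fli1, an endothelial ETS factor, −0.39 ± 0.18 (adjusted p = 0.35).

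FoxC factors act in the mesoderm of the kidney, vessels and head. foxc1a read 8.03 and 8.03 without and 8.17 and 7.87 with the miR-34b morpholino (−0.01 ± 0.18, SE), and foxc1b differed by −0.16 ± 0.28, so that neither was shown to differ. Of 9 genes of the kidney tubule and podocyte tested, 1 rose and 0 fell past the threshold, with a median of 0.51. Over all probe sets tested, 2.49% were called higher and 0.12% lower. At an unadjusted limma p under 0.05, 5 of the 9 were higher and 0 lower, against 11.6% and 6.1% of all probe sets tested. The gene past the threshold was clcnk, a chloride channel of the tubule, at 5.81 and 5.62 in controls and 7.46 and 7.07 in morphants (1.55 ± 0.21, SE; limma adjusted p = 0.0320).

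The FoxI member named in the array annotation, foxi1, acts in the ear and pharynx. It was within background on all 4 arrays, at 2.45 and 2.18 in controls and 1.22 and 2.62 in morphants. Genes of ionocytes had 0 of 14 past the threshold and a median of 0.01, with cldn3c, a claudin, at 0.60 ± 0.17 (SE; limma adjusted p = 0.173) and the proton pump subunit atp6v1ba at −0.45 ± 0.17 (adjusted p = 0.246).

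The remaining subfamilies were those of early embryo and brain. foxb1a, of the neural tube, read 6.30 and 4.82 without and 6.59 and 6.12 with the miR-34b morpholino (0.79 ± 0.50, SE; limma adjusted p = 0.488). Its paralog foxb1b, left out as dim, read 4.65 and 4.09 against 5.08 and 5.24, with separate groups. foxg1b, a forebrain gene, read 3.49 and 5.82 in controls and 4.48 and 4.47 in morphants. Both probe sets of foxh1, a partner of Smad proteins in the gastrula, were within background on all arrays. One read 3.09 and 2.60 in control cells against 1.08 and 1.58 in morphant cells, and the other 0.88 and 0.00 against 0.53 and 3.15, so no direction can be read.

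Other cell types of the dissected block were read beside these values. Myeloid markers had 0 of 11 past the threshold and a median of 0.02, and erythroid markers 0 of 5 and a median of −0.36, with control replicates at 0.66 and −0.66 from their mean. Of 10 epidermal genes, pkp3a, a desmosomal protein, rose (1.11 ± 0.16, SE; limma adjusted p = 0.0374) and 0 fell past the threshold. Over all probe sets tested, 2.49% were called higher and 0.12% lower. Among the 10, 2 were higher (pkp3a and anxa1a) and 1 lower at an unadjusted limma p under 0.05. The epidermal list too was chosen with earlier results of these data known, so its counts are no independent support. At an unadjusted limma p under 0.05, the lists with no call and not counted so above held 1 higher and 0 lower for myeloid markers, 0 and 1 for erythroid markers, 0 and 2 for insulin and FoxO genes, 1 and 1 for ionocyte genes, 2 and 3 for endoderm genes, 1 and 2 for neural crest genes and 1 and 0 for vessel genes, with shares of 11.6% and 6.1% over all probe sets tested. Their part in the Fox and Sox values was not tested.

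Over all 60 probe sets, dim ones included, 10 had separate groups with the morphants higher, 10 separate and lower, and 40 overlapped. The shares over the 15502 probe sets that are not array controls were 24.1% separate and higher and 22.2% separate and lower.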

How the data were processed

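RNA from sorted cells was hybridised to 1 Affymetrix zebrafish array per sample (2 control, 2 morphant). The log2 signals per probe set were deposited by the authors; the submitters' processing notes name MAS5 without a version, with the build not given in the sources used here. Groups were compared with limma 3.58.1 in R 4.3.3 on those values (1 term for the group, moderated variances, Benjamini-Hochberg adjustment over all probe sets tested), leaving out 115 array controls and the lowest 25% of the others by mean (11626 tested). The code was tested on simulated data. Gene names came from GEO's platform annotation, and all 60 members matched the RefSeq table by Entrez number with 0 symbols changed. Each list used 1 probe set per gene, the brightest. Members and lists were chosen with earlier results of these data known, so the counts of any list are no independent support. Array values are given for members past the threshold and for members with separate groups whose means differ by at least 1 on the log2 scale. They are also given for the brightest probe set of each subfamily and the other probe sets of a gene so named. Of each list, up to 4 genes past the threshold are named, or else the 2 with the smallest p. The number of arrays limits the precision. Arrays with the same replicate number shared little deviation from their group means (correlation 0.0206 over 11626 probe sets). That value cannot tell whether they were prepared together. Alternatives covered the filter, scaling, pseudocounts, the variance prior, the replicate block and each array left out.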

Additional observations from a re-analysis of the deposited data

How the results depend on the processing

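The 290 higher and 14 lower calls over all probe sets became 0 and 0 without the filter, 382 and 63 with the lowest 50% left out, 228 and 8 after quantile normalization, 402 and 38 with a pseudocount of 16, 500 and 82 with one of 64, and 508 and 101 with an intensity trend and robust variances. Leaving out 1 array gave 0 to 53 higher and 0 to 7 lower. For Fox and Sox the 1 higher call became 0 without the filter, 2 with the lowest 50% left out, 2 and 3 with the pseudocounts of 16 and 64, and 3 with trend and robust variances; leaving out 1 array gave 0 to 1, and 0 were lower in any setting. With the lowest 50% left out foxl1 is not tested. The calls beside foxl1 were sox9b (adjusted p = 0.0179 to 0.0459 where called) and sox11a (0.0344 to 0.0409). With the replicate block, foxl1 was 2.04 and 196 probe sets were higher and 11 lower, with 1 Fox or Sox call. Of the 32 members tested, 18 kept their sign in each of the 11 or 12 alternatives in which they were tested and 14 did not, the largest of these being 0.369 in size; 4 turned under quantile or median scaling and 10 only when an array was left out. The cause was not tested. Signal over background limits the 13 members within background on all arrays.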
